A study of Mus musculus with 13 samples.

Results

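The collagen genes of thymic lymphomas and thymus were examined in 13 RNA sequencing libraries. They were taken as the protein-coding genes whose symbol has the form Col, a number, a and a number, which gave 44 of the 43629 genes of the table. The 3 groups of mice were compared: 5 Atm-/- thymic lymphomas of strain 129S6/SvEv, 5 Rag2c/c p53-/- thymic lymphomas on a background mixed from C57BL/6 and 129S6/SvEv, and thymus of 3 wild-type (WT) C57BL/6 mice. Atm is a DNA damage kinase, p53 (Trp53) a tumor suppressor, and the Rag2c/c allele encodes a RAG2 recombinase without its C-terminus. Each lymphoma came from a different mouse, and RNA was made from suspensions of single cells. The WT thymuses were re-used from another series. The strain and the series of origin follow the groups, so that genotype, strain and series cannot be told apart. The source name of the WT libraries reads thymic lymphoma and their tissue reads thymus, and the tissue label was followed.

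Collagens are secreted or membrane proteins built from 3 chains wound into a triple helix. Fibrillar collagens form the fibrils of connective tissue, type IV collagens form the mesh of basement membranes, and others decorate fibrils, form beaded filaments or span the cell membrane. Fibroblasts, smooth muscle cells and epithelia make most collagen of a tissue, and the thymus holds a thin meshwork of it in its capsule, septa and vessel walls.

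Values are normalized counts, that is, reads per gene divided by a size factor of the library. The depth of the libraries was estimated from the steps between low values at 6.37 to 39.58 M reads, and 1 read was worth 0.5 to 3.375 normalized counts, so that values at or under 3 are near 0. WT replicate 2, Rag2c/c p53-/- replicate 2 and Atm-/- replicate 2 were the shallowest of their groups. Atm, the targeted gene of the first group, was at 208 to 732 in Atm-/- lymphomas, below the 1559 to 2274 of WT thymus, and it was at 439 to 1315 in Rag2c/c p53-/- lymphomas. Trp53 was at 2018 to 5461 in Rag2c/c p53-/- lymphomas and at 4387 to 6341 in WT thymus, and a total over a gene does not show whether a deleted part was read. The T cell genes Cd3e and Lck were at 7309 or more in every library.

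The promoters of 6 members on which the results turn are given first, as RefSeq sequences of GRCm38.p6. They run from 250 bases before to 50 bases after a transcription start of RefSeq. For Col1a2 and Col27a1 this window lies wholly inside the gene span given below, and not at its first base. In the promoters of Col1a2 (chr6:4505368-4505667, + strand), Col3a1 (chr1:45311288-45311587, + strand), Col27a1 (chr4:63215162-63215461, + strand) and Col23a1 (chr11:51289670-51289969, + strand), capitals mark each match on either strand to the letters of the CCAAT box, of the GC box, which reads GGGCGG, or of the TATA box, which reads TATAAA.
Col1a2: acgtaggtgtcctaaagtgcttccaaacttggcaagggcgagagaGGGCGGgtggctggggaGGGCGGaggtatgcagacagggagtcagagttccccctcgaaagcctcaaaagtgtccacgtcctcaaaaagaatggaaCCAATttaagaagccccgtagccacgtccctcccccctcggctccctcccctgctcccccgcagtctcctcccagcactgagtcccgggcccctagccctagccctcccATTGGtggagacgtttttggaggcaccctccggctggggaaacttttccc
Col3a1: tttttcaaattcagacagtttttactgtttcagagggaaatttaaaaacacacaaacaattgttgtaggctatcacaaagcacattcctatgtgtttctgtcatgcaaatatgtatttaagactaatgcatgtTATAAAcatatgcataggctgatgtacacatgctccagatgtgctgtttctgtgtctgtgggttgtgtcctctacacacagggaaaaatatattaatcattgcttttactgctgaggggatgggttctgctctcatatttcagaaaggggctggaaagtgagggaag
Col27a1: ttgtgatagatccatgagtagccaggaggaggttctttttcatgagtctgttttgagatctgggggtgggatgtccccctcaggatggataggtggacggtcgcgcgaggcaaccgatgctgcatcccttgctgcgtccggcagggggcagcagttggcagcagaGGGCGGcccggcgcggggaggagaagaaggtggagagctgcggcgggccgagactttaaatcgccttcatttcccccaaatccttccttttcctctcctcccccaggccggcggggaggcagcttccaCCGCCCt
Col23a1: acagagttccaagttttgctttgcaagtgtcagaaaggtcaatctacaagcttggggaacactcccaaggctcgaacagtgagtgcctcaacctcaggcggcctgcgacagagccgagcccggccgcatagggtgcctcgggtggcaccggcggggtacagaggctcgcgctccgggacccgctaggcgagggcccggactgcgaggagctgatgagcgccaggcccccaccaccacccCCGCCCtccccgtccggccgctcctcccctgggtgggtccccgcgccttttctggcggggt

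Col1a2 held 2 CCAAT matches and 2 GC boxes, Col27a1 held 2 GC boxes, Col23a1 held 1 GC box and Col3a1 held 1 TATA box. No 2 of the printed matches overlapped. Of 38 promoters of 35 collagen genes, CCAAT was in 13, the GC box in 23 and the TATA box in 5, and these motifs were in 37.4%, 35.7% and 13.6% of 32851 promoters of the same length. The median GC content was 59.85% over the collagen promoters and 52.7% over all promoters. A match is a run of letters and not a site of binding.

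Col4a1 and Col4a2, which encode the main chains of basement membrane collagen, lie head to head on chromosome 8, and their gene models overlap by 22 bases. Their promoters, on chr8:11312777-11313076 (- strand) and chr8:11312555-11312854 (+ strand), share 78 bases, which are in capitals and read as reverse complements.
Col4a1: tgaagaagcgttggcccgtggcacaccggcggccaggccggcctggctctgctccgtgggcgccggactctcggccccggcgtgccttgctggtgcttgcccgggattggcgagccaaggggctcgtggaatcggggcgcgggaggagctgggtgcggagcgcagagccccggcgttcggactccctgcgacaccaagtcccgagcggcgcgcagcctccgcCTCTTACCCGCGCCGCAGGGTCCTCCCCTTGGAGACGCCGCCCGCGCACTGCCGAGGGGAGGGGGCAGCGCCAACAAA
Col4a2: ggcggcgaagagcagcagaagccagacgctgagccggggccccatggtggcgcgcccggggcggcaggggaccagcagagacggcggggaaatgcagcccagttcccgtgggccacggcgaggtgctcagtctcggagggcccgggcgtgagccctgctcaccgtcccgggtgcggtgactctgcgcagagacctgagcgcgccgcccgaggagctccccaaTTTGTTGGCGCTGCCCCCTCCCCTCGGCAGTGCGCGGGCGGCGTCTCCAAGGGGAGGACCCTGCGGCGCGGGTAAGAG

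The members divided into 11 fibrillar, 9 basement membrane network, 9 fibril-associated, 9 beaded filament and anchoring, 4 transmembrane and 2 multiplexin collagens. Of the 44, 27 reached 10 normalized counts in 3 or more libraries and were tested, and 17 did not. The tested members were 9 of 11 fibrillar, 3 of 9 network, 5 of 9 fibril-associated, 6 of 9 beaded filament and anchoring, 2 of 4 transmembrane and 2 of 2 multiplexin collagens. The highest value of any untested member was 19, for Col4a6, a chain of epithelial basement membranes, and 8 members never rose above 3. Of the collagen genes known from cartilage, Col10a1, Col11a1 and Col9a1 were at 4 or less in all libraries and Col9a2 at 6 or less, whereas Col2a1 was at 3 to 33, Col9a3 at 27 to 113 and Col11a2 at 380 to 1734. With all libraries, neither Col2a1 nor Col9a3 passed a test in the comparisons that follow. Without Rag2c/c p53-/- replicate 1, Col2a1 was higher in these lymphomas than in WT thymus (log2 fold change 1.79, limma adjusted p = 0.0277). A member that passed this limit only through the group where it was high was favoured to differ. For example, Col8a1 and Col5a3 reached 10 in no WT library. Col17a1 and Col6a6 reached 10 only in Atm-/- lymphomas, and they passed no test with all libraries. The counts below thus cover tested members and not all collagens.

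**Figure D1:**
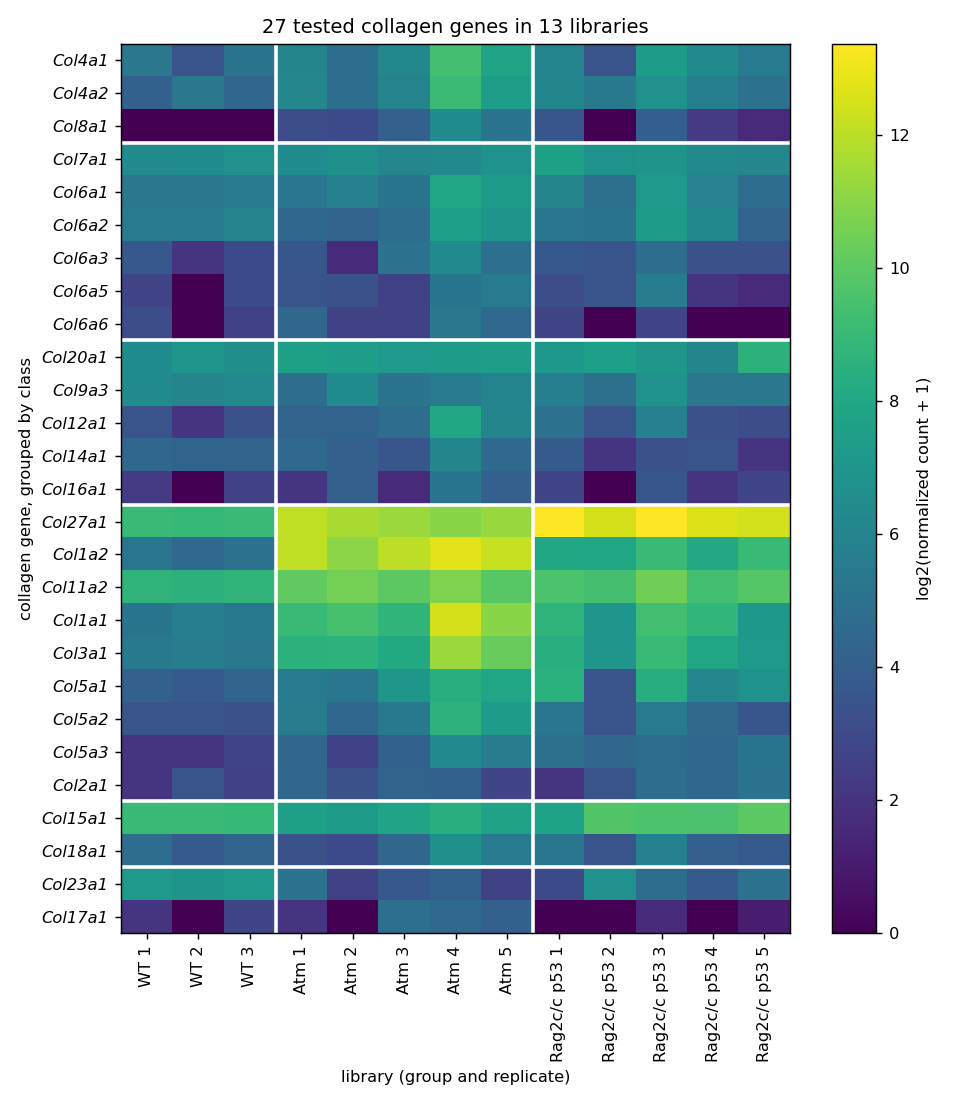
Heat map of the 27 tested collagen genes (rows, grouped by class and separated by white lines) in 13 libraries (columns, by group and replicate), coloured by log2(normalized count + 1). Col27a1 is the brightest row in all 5 Rag2c/c p53-/- lymphomas, and Atm-/- replicate 4 is the brightest Atm-/- column for Col1a1, Col3a1, Col4a1 and Col4a2.

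Summed over the 44 members, the level per kilobase of exon was 293.3 to 313.3 in WT thymus, 922.4 to 2650.2 in Atm-/- lymphomas and 843.4 to 1545.7 in Rag2c/c p53-/- lymphomas. Every lymphoma thus lay above every WT thymus, and the lymphoma groups overlapped. On this scale, in which the length is the union of annotated exons, WT thymus had most of Col15a1 (79.86 ± 0.82 normalized counts per kb, SD, n = 3), followed by Col11a2 (59.65 ± 3.95) and Col27a1 (39.86 ± 1.79). Atm-/- lymphomas had most of Col1a2 (360.16 ± 136.91, n = 5), then Col1a1 (290.02 ± 345.73), Col27a1 (229.64 ± 69.92) and Col11a2 (182.86 ± 49.96), neighbours in that order that did not differ beyond their spread. In Rag2c/c p53-/- lymphomas Col27a1 (594.5 ± 188, n = 5) stood above Col11a2 (129.24 ± 47.48) and Col15a1 (113.03 ± 47.82). Col27a1 made up 45.46% to 65.39% of the summed collagen level per kb in these lymphomas and 12.82% to 13.38% in WT thymus.

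Atm-/- lymphomas were compared with WT thymus to ask how the tumors differ from the tissue of origin. Fibrillar collagens were higher: 8 of 9 tested passed the test, and the gene with the largest difference was Col1a2. In all, 11 of 27 collagen genes were higher and 2 were lower, where 12.6% and 17% of the 15872 genes tested passed in these directions and 29.5% in either. A gene passed at an adjusted p under 0.05 by limma with Benjamini-Hochberg adjustment, a difference of at least 1 on the log2(value + 1) scale and 10 or more normalized counts on average in either group. The median log2 fold change of the 27 genes was 1.76, and that of all tested genes was -0.02. The 2 groups did not overlap for 10 higher and 2 lower members, and they did not overlap for 23.4% and 27.9% of all genes. Without WT replicate 1, 7 collagen genes were higher, and 1 was lower without any 1 WT library or Atm-/- replicate 2. In bulk RNA, fewer cells of a type and less RNA per cell cannot be told apart.

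Col1a1 and Col1a2 encode the 2 chains of type I collagen, the main fibrillar collagen of connective tissue. Col1a2 (ENSMUSG00000029661, chromosome 6, 4504814 to 4541543) was at 37, 23 and 32 in WT thymus and at 4338, 2099, 4259, 6874 and 4807 in Atm-/- lymphomas. All 5 lymphomas lay far above all WT libraries, and the log2 fold change was 7.07 ± 0.37 (SE; limma adjusted p = 8.21e-08). Col1a1 (ENSMUSG00000001506, chromosome 11, 94936224 to 94953042) was at 36, 52 and 41 in WT thymus and at 542, 715, 422, 5791 and 2047 in Atm-/- lymphomas, with replicates 4 and 5 well above the other lymphomas. Its log2 fold change was 4.72 ± 0.77 (limma adjusted p = 0.000347).

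Col3a1, the chain of type III collagen of elastic tissues, was at 41, 49 and 39 in WT thymus and at 381, 393, 279, 2608 and 1205 in Atm-/- lymphomas. The log2 fold change was 3.93 ± 0.66 (limma adjusted p = 0.000444), and the groups did not overlap. Col5a2, a chain of the type V collagen that nucleates fibrils, lies tail to tail with Col3a1 on chromosome 1 and was at 10, 10 and 9 in WT thymus against 49, 21, 42, 400 and 165. Its log2 fold change was 2.9 ± 0.81 (limma adjusted p = 0.0113). Its partner chain Col5a1 was at 16, 13 and 18 against 43, 37, 132, 348 and 243, a log2 fold change of 2.78 ± 1.02 (limma adjusted p = 0.0398). Col5a1 lost its call without any 1 WT library or without Atm-/- replicate 3, 4 or 5 (adjusted p up to 0.105).

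Col5a3, another type V chain, was at 3, 3 and 6 in WT thymus and at 20, 5, 17, 79 and 49 in Atm-/- lymphomas. Replicate 2 lay within the WT range, and the log2 fold change was 2.35 ± 0.68 (limma adjusted p = 0.0127). The call was lost without WT replicate 1 (adjusted p = 0.0529).

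Col27a1 and Col11a2, a pair of fibrillar genes best known from cartilage, were already expressed in WT thymus. Col27a1 (ENSMUSG00000045672, chromosome 4, 63214004 to 63334991) was at 540, 494 and 523 in WT thymus and at 4427, 3275, 2641, 2072 and 2537 in Atm-/- lymphomas, a log2 fold change of 2.48 ± 0.26 (limma adjusted p = 1.54e-05). Here replicate 4 was the lowest of its group. Col11a2 (ENSMUSG00000024330, chromosome 17, 34039437 to 34066685) was at 417, 380 and 433 against 1097, 1500, 1014, 1734 and 940, a log2 fold change of 1.57 ± 0.27 (limma adjusted p = 0.000455). Of the markers of cartilage and bone, Sp7 and Ibsp were at 1 or less in every library and Sox9 was at 1 to 14, whereas Acan, the cartilage proteoglycan, was at 160 to 188 in WT thymus and at 53 to 2730 in Atm-/- lymphomas.

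Col8a1, a network collagen of vessel walls, was listed at 0 in the 3 WT libraries and at 8, 7, 16, 90 and 34 in Atm-/- lymphomas, and it passed the test (limma adjusted p = 0.0022). Col12a1, a collagen on the surface of fibrils, was at 10, 3 and 9 against 18, 18, 26, 248 and 67 (limma adjusted p = 0.0307). Col4a2 was at 17, 39 and 20 against 71, 27, 62, 551 and 177 and passed (limma adjusted p = 0.0403), although the groups overlapped. Col4a1 was at 39, 10 and 34 against 67, 27, 74, 667 and 220 and did not pass (limma adjusted p = 0.0797). Col12a1 and Col4a2 lost their calls without any 1 WT library or without Atm-/- replicate 4 or 5 (adjusted p up to 0.125 and 0.135), and Col4a1 gained one without Atm-/- replicate 2 (adjusted p = 0.0317).

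The microfibril collagens of type VI did not pass the test with all libraries, and Col6a3 did without Atm-/- replicate 2 (log2 fold change 2.08, limma adjusted p = 0.0215). Col6a1 was at 39, 39 and 45 in WT thymus and at 37, 55, 36, 243 and 155 in Atm-/- lymphomas, and Col6a2 was at 47, 45 and 61 against 22, 18, 26, 184 and 121. Col6a3 was at 12, 3 and 7 against 11, 2, 33, 83 and 28. In all 3 genes replicates 4 and 5 lay above the WT range and replicate 2 did so only for Col6a1. Col18a1, the basement membrane multiplexin whose gene model overlaps Slc19a1 on the other strand, was at 27, 13 and 19 against 9, 7, 20, 103 and 43 and did not pass.

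The lower genes were Col15a1, a multiplexin of basement membrane zones, and Col23a1, a membrane-spanning collagen. Col15a1 (chromosome 4, 47208161 to 47313167) was at 510, 510 and 501 in WT thymus and at 200, 153, 220, 337 and 205 in Atm-/- lymphomas, a log2 fold change of -1.23 ± 0.41 (limma adjusted p = 0.0273). All lymphomas were below all WT libraries, but the call was lost without any 1 WT library or without Atm-/- replicate 2 (adjusted p 0.0513 to 0.0769). Col23a1 (chromosome 11, 51289920 to 51583918) was at 151, 120 and 150 against 33, 5, 12, 17 and 5, a log2 fold change of -3.51 ± 0.76 (limma adjusted p = 0.00248).

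**Figure D2:**
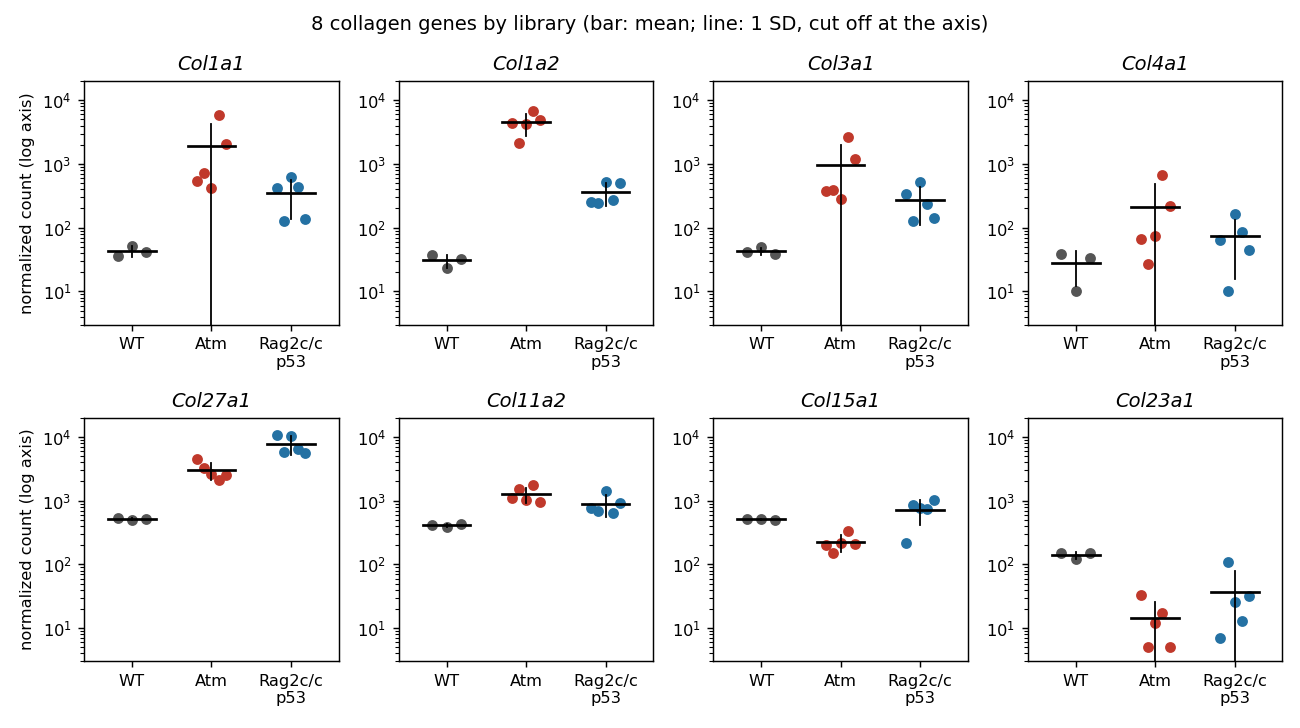
Normalized counts (log axis) of 8 collagen genes, one point per library, in WT thymus (3), Atm-/- lymphomas (5) and Rag2c/c p53-/- lymphomas (5), with the mean as a bar and 1 SD as a line that is cut off at the axis. Col1a2 forms 3 separate levels, Col27a1 is highest in Rag2c/c p53-/- lymphomas, and Col23a1 is highest in WT thymus.

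Rag2c/c p53-/- lymphomas were compared with the same 3 WT thymuses, so both comparisons with WT share their controls. Fibrillar collagens were higher again, with 6 of 9 tested, and no collagen of another class was. In all, 6 of 27 were higher and 1 was lower, where 9.77% and 13.9% of all tested genes passed, and 23.6% in either direction. The median log2 fold change was 1.05 over the 27 genes and -0.02 over all genes. Groups did not overlap for 6 higher and 2 lower members, against 19.7% and 24.2% of all genes. The count of lower genes was 0 without any 1 WT library and 2 without Rag2c/c p53-/- replicate 1, when Col14a1 joined it.

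Col27a1 was at 10568, 5887, 10238, 6394 and 5621 in Rag2c/c p53-/- lymphomas, all more than any other library, and the log2 fold change from WT thymus was 3.84 ± 0.26 (limma adjusted p = 1.1e-06). Col1a2 was at 251, 243, 517, 272 and 505, a log2 fold change of 3.44 ± 0.37 (limma adjusted p = 2.81e-05). Col1a1 was at 416, 128, 631, 440 and 138, a log2 fold change of 2.74 ± 0.77 (limma adjusted p = 0.0133). These 3 genes did not overlap with WT thymus.

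Col3a1 was at 342, 125, 528, 237 and 142 and rose by 2.45 ± 0.66 on the log2 scale (limma adjusted p = 0.0111). Col11a2 was at 756, 686, 1439, 637 and 924 and rose by 1.05 ± 0.27 (limma adjusted p = 0.0079). Col5a3 was at 30, 20, 25, 22 and 35 against 3, 3 and 6 in WT thymus, with an adjusted p of 0.0116 by limma. Without WT replicate 1 the calls of Col1a1 and Col5a3 were lost (adjusted p = 0.0532 and 0.052), and Col11a2 fell under the fold limit without WT replicate 2 or Rag2c/c p53-/- replicate 3.

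Col5a1 spread widely in these lymphomas, at 369, 10, 317, 72 and 112, and did not pass (limma adjusted p = 0.0583), but it did without replicate 2 (adjusted p = 0.00554). Col4a1 was at 65, 10, 165, 84 and 45 and Col4a2 at 70, 41, 108, 53 and 32. Neither passed, nor did Col5a2 (37, 10, 46, 24 and 11), Col8a1 (11, 0, 15, 4 and 2), Col12a1 (31, 10, 57, 9 and 8) or Col18a1 (37, 10, 57, 16 and 13). The type VI genes Col6a1 (66, 30, 149, 59 and 27), Col6a2 (37, 34, 165, 75 and 19) and Col6a3 (12, 10, 27, 9 and 9) did not pass either.

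Col23a1 was at 7, 108, 26, 13 and 32, below the 120 to 151 of WT thymus, a log2 fold change of -2.46 ± 0.76 (limma adjusted p = 0.0223). That call was lost without any 1 WT library (adjusted p 0.0548 to 0.0757). Col15a1 was at 216, 865, 756, 727 and 1024, with 4 lymphomas above WT thymus and replicate 1 below it, and it did not pass (limma adjusted p = 0.555).

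The lymphoma groups were then compared with each other. Of 27 genes, Col1a2 was higher in Atm-/- lymphomas and Col27a1 and Col15a1 were lower, where 3.51% and 4.33% of all tested genes passed, and 7.84% in either direction. Each of these 3 calls was kept when any 1 lymphoma was left out, but the number higher was 4 without Atm-/- replicate 2 or 3, 3 without Rag2c/c p53-/- replicate 1 and 2 without Rag2c/c p53-/- replicate 3. The median log2 difference was 0.58 over the 27 genes and 0.02 over all genes. The groups did not overlap for 1 higher and 1 lower member, against 3.85% and 4.48% of all genes.

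Col1a2 was at 2099 to 6874 in Atm-/- lymphomas and at 243 to 517 in Rag2c/c p53-/- lymphomas, a log2 difference of 3.63 ± 0.32 (limma adjusted p = 8.33e-06). Col27a1 differed in the other direction, at 2072 to 4427 against 5621 to 10568, a log2 difference of -1.37 ± 0.23 (limma adjusted p = 0.00186). Col15a1 was at 153 to 337 against 216 to 1024, a log2 difference of -1.56 ± 0.36 (limma adjusted p = 0.0135), with Rag2c/c p53-/- replicate 1 inside the Atm-/- range. Col1a1 and Col3a1 had log2 differences of 1.97 ± 0.66 and 1.48 ± 0.57 and did not pass (limma adjusted p = 0.0712 and 0.114).

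**Figure D3:**
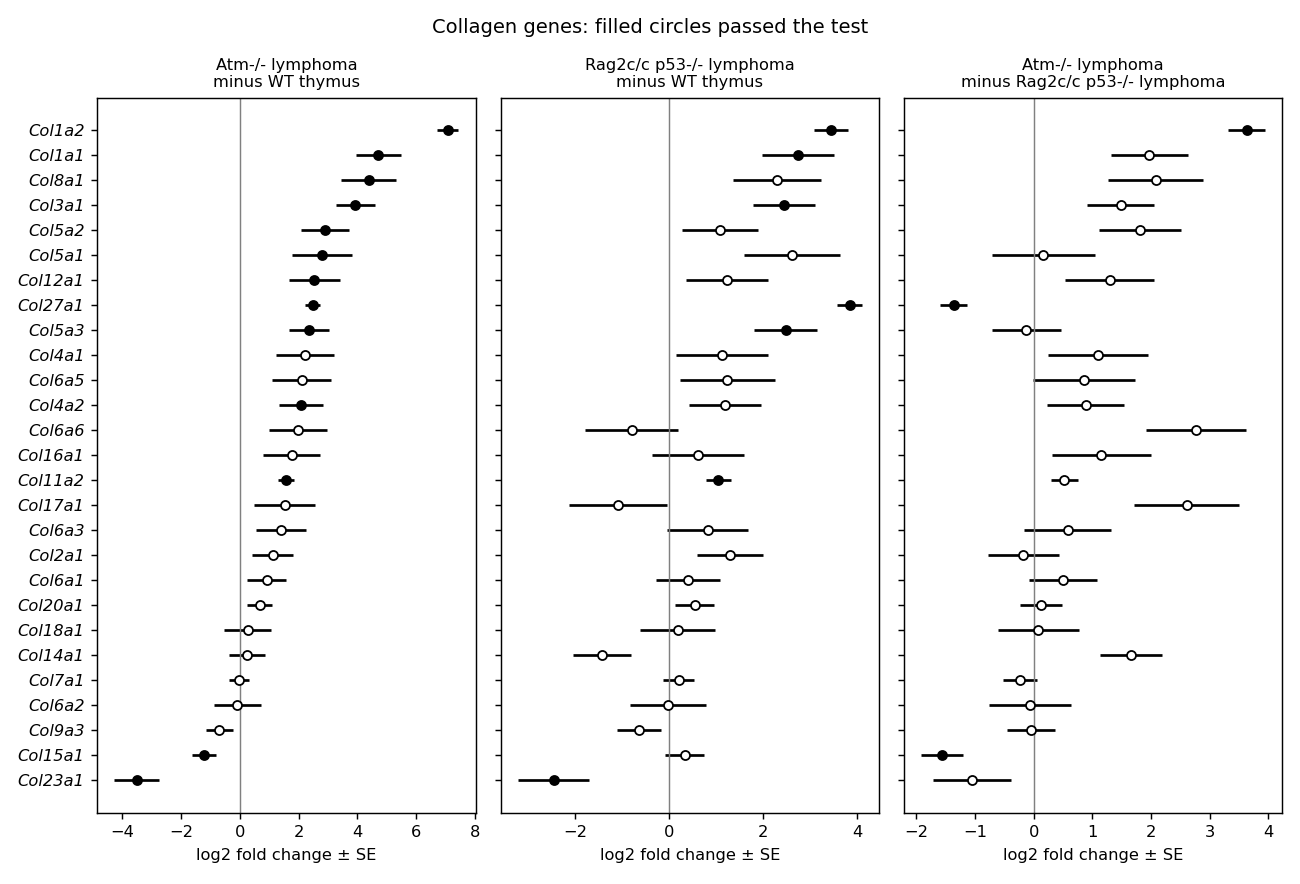
Fitted log2 fold change with its SE for the 27 tested collagen genes in the 3 comparisons, ordered by the Atm-/- difference from WT thymus; filled circles passed the test. All 9 fibrillar genes lie to the right of 0 in both comparisons with WT thymus, and Col1a2 and Col27a1 lie on opposite sides of 0 between the lymphoma groups.

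Within a lymphoma, the 2 type I chains did not keep 1 ratio, a pattern picked out after its values were seen and given without a test. The ratio of Col1a2 to Col1a1 normalized counts was 1.03, 0.442 and 0.78 in WT thymus, 8, 2.94, 10.1, 1.19 and 2.35 in Atm-/- lymphomas and 0.603, 1.9, 0.819, 0.618 and 3.66 in Rag2c/c p53-/- lymphomas. All Atm-/- lymphomas thus had a ratio above every WT thymus. Replicate 4, with most Col1a1, had the ratio nearest to 1. The ratio of Col3a1 to Col1a1 varied less, from 0.45 to 0.703 in Atm-/- lymphomas, from 0.539 to 1.03 in Rag2c/c p53-/- lymphomas and from 0.942 to 1.14 in WT thymus. The ratio of Col4a2 to Col4a1 was 0.805 to 1.06 in Atm-/- lymphomas, and in the shallow WT replicate 2 and Rag2c/c p53-/- replicate 2 it was 3.9 and 4.1, with Col4a1 at 10 in both.

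**Figure D4:**
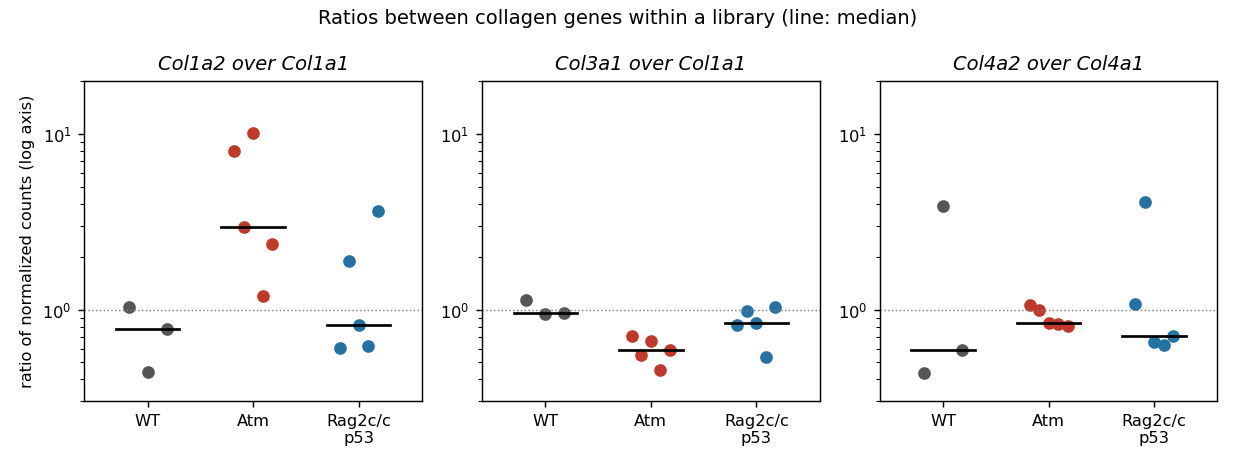
Ratio of normalized counts of 2 collagen genes within each library (log axis, one point per library, median as a bar) for the 3 groups of mice. Col1a2 over Col1a1 reaches 10.1 in Atm-/- lymphomas, whereas Col3a1 over Col1a1 stays between 0.45 and 1.14 in all libraries.

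The spread between lymphomas was wide for many members. The median SD of log2(value + 1) was 1.36 over the 27 members and 0.436 over all tested genes in Atm-/- lymphomas, 0.95 and 0.493 in Rag2c/c p53-/- lymphomas, and 0.263 and 0.162 in WT thymus. Atm-/- replicate 4 held the highest value of its group for 19 of 27 members (70.4%) and for 19.4% of all genes. Rag2c/c p53-/- replicate 3 did so for 17 of 27 members (63%) and for 18.4% of all genes. Col27a1, Col20a1, Col7a1 and Col9a3 were among the members that were not highest in Atm-/- replicate 4, and Col20a1 shares 741 bases with a gene on its own strand, so its counts are uncertain.

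The sum of smooth muscle and pericyte markers was highest in the same libraries, and the sum of fibroblast markers was not. This was not particular to smooth muscle in Atm-/- replicate 4. Its sums of endothelial (483), thymic epithelial (786), myeloid (12875) and adipocyte (318) markers were also the highest of its group. In Rag2c/c p53-/- replicate 3 none of these other sums was the highest. The summed level of 7 smooth muscle and pericyte markers was 97 to 156 in WT thymus, 58 to 1382 in Atm-/- lymphomas and 139 to 439 in Rag2c/c p53-/- lymphomas, and the highest lymphoma in each group was the one with most Col1a1. Acta2, on average the most abundant of them in the lymphomas, was at 724 in Atm-/- replicate 4 and at 187 in Rag2c/c p53-/- replicate 3. Of the 6 tested markers, none passed against WT thymus in Atm-/- lymphomas, and only Cnn1 was higher in Rag2c/c p53-/- lymphomas. Over all tested genes, 12.6% were higher and 17% lower in Atm-/- lymphomas, and 9.77% and 13.9% in Rag2c/c p53-/- lymphomas. Cnn1 was at 77 in Rag2c/c p53-/- replicate 1 and at 12 in replicate 3. The median log2 fold changes were 1.18 and 0.5, with Rgs5 at -2.09 and -1.75 and Myh11 at -0.27 and -0.82.

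The 10 fibroblast markers summed to 3855, 4492 and 3911 in WT thymus, to 5112, 2695, 6093, 4167 and 5099 in Atm-/- lymphomas and to 7942, 4834, 5751, 4578 and 5634 in Rag2c/c p53-/- lymphomas. Atm-/- replicate 4 and Rag2c/c p53-/- replicate 3 were thus not the highest of their groups. Gsn and Pdgfrb, which other cells also express, made up most of these sums. Of the 10 markers, 3 were higher in Atm-/- lymphomas than in WT thymus (Mfap5, Pdgfrb and Pdgfra) and 1 was lower (Gsn). In Rag2c/c p53-/- lymphomas 3 were higher (Twist2, Pdgfra and Pdgfrb) and 0 were lower. The shares over all tested genes were 12.6% higher and 17% lower in Atm-/- lymphomas, and 9.77% and 13.9% in Rag2c/c p53-/- lymphomas.

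Among the other fibroblast markers, Dcn, a proteoglycan of collagen fibrils, was at 38 to 481 and was never near 0. Lum was at 0 to 39, Dpt at 0 to 45, Fap at 0 to 17 and Pi16 at 0 to 43 over all libraries. Dcn, Lum, Dpt, Fap, Mfap5, Pdgfra and Twist2 had their highest Atm-/- value in replicate 4, and Pdgfrb, Gsn and Pi16 did not. This was seen in the values and not tested. The cells that the collagen RNA came from were not tested, so the members are called collagen genes here.

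Markers of other cell types were also followed. The 8 endothelial markers summed to 83 to 143 in WT thymus, 216 to 483 in Atm-/- lymphomas and 229 to 398 in Rag2c/c p53-/- lymphomas, of which Egfl7 was the larger part in the lymphomas. Egfl7 was higher in both lymphoma groups than in WT thymus, whereas Cdh5 and Kdr, which define endothelium, were lower in Rag2c/c p53-/- lymphomas (log2 fold changes of -2.93 ± 0.87 and -2.55 ± 0.87, limma adjusted p = 0.0183 and 0.0335). In Atm-/- lymphomas Cdh5 was at 2 to 60 and Kdr at 0 to 30, against 19 to 35 and 13 to 46 in WT thymus, and neither passed. Tek was at 0 to 8. The 9 thymic epithelial markers summed to 939 to 1387, 210 to 786 and 300 to 1337, Epcam reached 875, and Psmb11, the thymoproteasome subunit of the cortical epithelium, was at 36 to 122 in WT thymus and at 0 or 1 in all lymphomas. The 8 myeloid markers summed to 3828 to 4493, 7486 to 12875 and 4586 to 9177, with Lyz2 the most abundant. The 5 adipocyte markers summed to 25 to 55, 87 to 318 and 145 to 237, with Lep at 0 or 1, and the 5 Schwann cell markers to 4758 to 5095, 1857 to 4514 and 2696 to 3670, of which Mbp was the larger part. The 7 cartilage and bone markers summed to 250 to 284, 73 to 2786 and 757 to 3511, mostly Acan, and the 8 thymocyte markers to 136573 to 208660, 50484 to 101907 and 79902 to 125221. The part of these cells in the collagen values was not tested.

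The genes that act on collagens were taken from lists and counted in the same comparisons. Among genes of collagen maturation in the endoplasmic reticulum, 5 of 17 tested were higher and 0 were lower in Atm-/- lymphomas, and 5 and 0 in Rag2c/c p53-/- lymphomas, with median log2 fold changes of 0.58 and 0.67. Over all tested genes, 12.6% were higher and 17% lower in Atm-/- lymphomas, and 9.77% and 13.9% in Rag2c/c p53-/- lymphomas. Serpinh1, the collagen chaperone HSP47, had a log2 fold change of 3.56 ± 1.06 in Atm-/- lymphomas (limma adjusted p = 0.0153). Fkbp10, a prolyl isomerase, was at 21, 19 and 29 in WT thymus, at 331, 242, 374, 118 and 235 in Atm-/- lymphomas and at 1178, 378, 1395, 200 and 1318 in Rag2c/c p53-/- lymphomas. Its log2 fold changes were 3.36 ± 0.6 and 4.88 ± 0.6 (limma adjusted p = 0.000634 and 7.4e-05). Leprel4, a partner of collagen hydroxylases, was higher in Rag2c/c p53-/- lymphomas, at 2.84 ± 0.61 (limma adjusted p = 0.00296).

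Among genes of procollagen cleavage and cross-linking, 3 of 10 were higher in Atm-/- lymphomas and 2 in Rag2c/c p53-/- lymphomas, and none of these 10 was lower, with medians of 1.33 and 0.92, where 12.6% and 9.77% of all genes were higher and 17% and 13.9% lower. The cross-linking enzymes Loxl1 and Loxl2 passed in both, at log2 fold changes of 3.99 ± 0.86 and 3.16 ± 0.8 in Atm-/- lymphomas. Pcolce, which speeds procollagen cleavage, passed in Atm-/- lymphomas at 2.44 ± 0.67. Among matrix partners, 7 of 19 were higher and 1 was lower in Atm-/- lymphomas, and 2 and 0 in Rag2c/c p53-/- lymphomas, with medians of 1.85 and 0.95. The shares over all genes were 12.6% and 17%, and 9.77% and 13.9%, so the count in Rag2c/c p53-/- lymphomas was near the background. Fbln1, a fibulin of basement membranes, rose most, by 4.85 ± 0.42 and 5.47 ± 0.42. Sparc, a collagen-binding glycoprotein, was higher in Atm-/- lymphomas by 3.73 ± 0.74, and its ratio to Col1a1 was 0.407 to 0.569 in these libraries. Lamc1, a laminin chain, was lower in Atm-/- lymphomas, at -4.17 ± 0.86, whereas the laminin chain Lamb1 was higher, at 2.9 ± 0.87.

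Of the collagen receptors, 0 of 8 were higher and 4 were lower in Atm-/- lymphomas, and 1 was higher and 3 were lower in Rag2c/c p53-/- lymphomas, with medians of -0.92 and -0.55, where 17% and 13.9% of all genes were lower and 12.6% and 9.77% higher. The integrin chains Itga1 and Itga2 were lower in both, at log2 fold changes of -2.75 ± 0.71 and -2.83 ± 0.87 in Atm-/- lymphomas. Ddr1, a receptor tyrosine kinase that binds collagen, was at 167, 175 and 212 in WT thymus, at 48, 126, 57, 152 and 69 in Atm-/- lymphomas and at 325, 510, 827, 563 and 991 in Rag2c/c p53-/- lymphomas. The 2 lymphoma groups lay on either side of WT thymus, and their log2 difference was -2.86 ± 0.36 (limma adjusted p = 0.000265).

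Of genes of collagen breakdown, 1 of 11 was higher and 2 were lower in Atm-/- lymphomas, and 3 and 2 in Rag2c/c p53-/- lymphomas, with medians of 0.39 and -0.06. Over all genes, 12.6% were higher and 17% lower in Atm-/- lymphomas, near the counts of this list, and 9.77% and 13.9% in Rag2c/c p53-/- lymphomas. Mmp8, the neutrophil collagenase, was lower in both, at log2 fold changes of -3.16 ± 0.89 and -3.41 ± 0.89, and Timp1, an inhibitor of these proteases, was higher in both, at 2.85 ± 0.64 and 1.93 ± 0.64. Mmp14 and Mmp13 were higher in Rag2c/c p53-/- lymphomas, at 2.69 ± 0.91 and 2.645 ± 0.76 (limma adjusted p = 0.0335 and 0.0152). Mmp2 was lower in Rag2c/c p53-/- lymphomas, at -2.01 ± 0.71, and Mmp9 in Atm-/- lymphomas, at -1.64 ± 0.45. Of TGF-beta and other regulators, 3 of 13 were higher and 3 were lower in Atm-/- lymphomas, and 2 and 3 in Rag2c/c p53-/- lymphomas, with medians of 0.48 and 0.2, against the same shares over all genes. Smad7, an inhibitor of TGF-beta signalling, was lower in both, at -4.08 ± 0.58 and -3.59 ± 0.58, and so was the receptor Tgfbr2, at -1.43 ± 0.28 and -1.44 ± 0.28. Between the lymphoma groups, 1 of the 78 tested genes of the 6 lists was higher in Atm-/- lymphomas, Fbn1, and 3 were lower, no larger a share than the 3.51% and 4.33% of all genes: Lepre1, Ddr1 and Lamc1, named after their values were seen.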

How the data were processed

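PolyA RNA of 10 thymic lymphomas and 3 thymuses was sequenced with a stranded mRNA kit. The submitters' processing notes name bcl2fastq 1.8.3, STAR 2.4.0g1, Picard, DESeq2 1.6.3 and the builds GRCm38 and mm10, and the annotation, the counter and its strand setting are not given in the sources used here. The deposited values are a score: counts that the authors divided by size factors and rounded to whole numbers. The table also holds the authors' group means, fold changes, p-values and dispersions, which were not used, and its mean over all libraries is not that of the 13 columns. All 13 columns were matched to samples by title.

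Whole reads could not be recovered from rounded values, so no count test was run. Linear models over 13 libraries and 3 groups were run on log2(value + 1) in limma 3.58.1 (R 4.3.3), using its trended and robust moderation, for 15872 genes at 10 or more in at least 3 libraries. Adjusted p-values are Benjamini-Hochberg values over all tested genes. On simulated data for Atm-/- lymphomas against WT thymus, 82.2% of 197 genes changed by 2 on the log2 scale were recovered, with 8 false calls among 15423 genes. The simulation gave all genes and groups the same dispersion, so these rates do not describe the collagen genes. Their median SD of log2(value + 1) was 1.36 in Atm-/- lymphomas and 0.263 in WT thymus.

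Values per library are given for members that passed in any comparison and for Col1a1, Col1a2, Col3a1, Col5a1, Col5a2, Col4a1, Col4a2, Col6a1, Col6a2, Col6a3, Col15a1 and Col18a1, for up to 3 genes of each list in each direction, and for the most abundant or near-0 genes of each cell type list. The members and lists were chosen with earlier results of these data known. Exon lengths came from GENCODE and promoters from RefSeq. The alternatives were other size factors, filters and pseudocounts, no fold limit, only the 2 groups compared, and each library left out. Depth was estimated from steps between low values, and a simulated step under 0.5 was not recovered. Each p-value sets a difference of means against a moderated spread between mice, pooled over all 3 groups. A comparison of 2 groups thus also depends on the spread of the remaining group. For Col15a1 the SE was 0.4133 in both comparisons with WT thymus. Its SD of log2(value + 1) was 0.015 for WT thymus, 0.41 for the Atm-/- group and 0.892 for the Rag2c/c p53-/- group. Replicate numbers of lymphomas are names in accession order.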

Additional observations from a re-analysis of the deposited data

Results flagged for a closer look

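Among 36 groups of 5 lymphomas examined for the 18 named collagen genes, 2 libraries stood apart from the other 4 of their group by Dixon's test, and chance flags about 1 in 20 groups. Col15a1 was at 216 in Rag2c/c p53-/- replicate 1, and the other 4 lymphomas were at 727 to 1024. Col6a3 was at 27 in Rag2c/c p53-/- replicate 3, and the others were at 9 to 12. The difference from WT thymus was unequal between the lymphoma groups for 3 genes, tested as the limma contrast of the 2 groups: Col1a2 by 3.63, Col27a1 by -1.37 and Col15a1 by -1.56 on the log2 scale.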

How the results depend on the processing

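No fold change of a tested collagen gene turned its direction while it was called. Over the members' fold changes, other settings than leaving out a library ended 1 call and added 1 (Col4a2 against WT thymus with only the 2 groups, adjusted p = 0.0717; Col6a6 between the lymphoma groups with a pseudocount of 5, adjusted p = 0.0471), and leaving out a library ended 28 and added 15. With 1 library left out, the number of collagen genes higher in Atm-/- lymphomas ranged from 7 (without WT replicate 1) to 14 (without Atm-/- replicate 2) and the number lower from 1 to 2. In Rag2c/c p53-/- lymphomas the number lower ranged from 0 to 2. The number higher moved too: Col1a1, Col5a3 and Col11a2 each lost and Col2a1 and Col5a1 each gained a call in some of these fits. Of the 7 calls in these lymphomas, 3 (Col1a2, Col27a1 and Col3a1) were kept whichever library of the 2 groups was left out. In Atm-/- lymphomas 8 of 13 were kept. Between the lymphoma groups the number higher ranged from 1 to 4, and it was 2 with a pseudocount of 5. For the pathway lists, the number higher in Rag2c/c p53-/- lymphomas went from 15 to 8 without WT replicate 2 and to 17 without Rag2c/c p53-/- replicate 2, and the number lower from 8 to 4 without WT replicate 3. The number lower in Atm-/- lymphomas fell from 10 to 5 without WT replicate 3. Between the lymphoma groups the lists' number higher was 2 with a pseudocount of 5 or with no fold limit and 0 to 3 with 1 library left out, and the number lower reached 5. The cause was not tested. The shallow libraries limit members under about 10 normalized counts. No paired analysis was possible because the groups are different mice, and no label pairs libraries across groups.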
